A study of Homo sapiens with 6 samples.

Results

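The genes examined were 10 genes of the human mitochondrial genome, comprising both ribosomal RNAs and 8 messenger RNAs. They were listed by name, as MT-RNR1, MT-RNR2, MT-CO1, MT-CO2, MT-CO3, MT-ND1, MT-ND4, MT-ND5, MT-CYB and MT-ATP6, and make up 10 of the 60708 genes counted and 10 of the 37 genes annotated on the mitochondrial chromosome. Ago-RIP-seq, sequencing of the RNA pulled down with the Argonaute protein AGO2, had been performed on MDA-MB-231 cells, an established human line of triple-negative breast cancer. Cells received the mimic of miR-99b-5p or a scrambled control oligonucleotide (25 nM, 18 h), and none carried a further genetic change or agent named in the labels. There were 2 mimic AGO2-IP libraries, 2 mimic flow-through libraries (RNA left behind by the pull-down), 1 library of each fraction from the control. Which control library is which fraction rests on its sample title, since the supplementary design sheet lists both as control replicates with no fraction, and the methods describe replicate AGO2 pull-downs for the control as well as the mimic. By the titles each control fraction is 1 library. If both control libraries were AGO2-IP, the control ratio, the comparison of ratios and the fraction contrasts that use a control library would not hold. The comparison of mimic with control over both fractions also rests on these titles. So does the split by fraction of the shares and ratios among the mitochondrial mRNAs.

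The mitochondrial genome is transcribed inside the organelle from both strands into long precursors, which are cut at tRNAs into rRNAs, mRNAs and tRNAs. The rRNAs form the mitochondrial ribosome, and the mRNAs encode core subunits of the respiratory chain and of ATP synthase. AGO2 and microRNAs act mainly in the cytosol, on messages exported from the nucleus. Mitochondrial RNAs were therefore followed here as a class of RNA made in another compartment. Whether AGO2 bound them was not tested. All 10 genes lie on the plus strand of chrM in GRCh38, which is 16569 bases long. They are 681 (MT-ATP6) to 1812 (MT-ND5) bases long without introns, and their GC content was 42.8% to 47.7%, within the middle range of 41.4% to 56.1% (quartiles) of the nuclear protein-coding transcripts tested.

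The sequences shown are of 3 kinds. The first is the transfected microRNA, because its seed defines which letters a matching transcript would hold. The second is the pair of 30-base stretches in which the seed's own first letters, rather than their complement, occur in the genes examined. The third is the start of 3 of the mRNAs whose shares or ratios were compared between fractions. Mature miR-99b-5p (RefSeq, GRCh38.p14, chr19:51692618-51692639, plus strand) has bases 2 to 8, the seed, in capitals.
hsa-miR-99b-5p: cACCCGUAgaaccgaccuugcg
The reverse complement of seed bases 2 to 7, ACGGGT, was absent from the sense strand of all 10 genes (0 matches in each). For comparison, the longest transcript of each nuclear protein-coding gene was searched from its start over the same length. Among transcripts at least that long, 4.22% held ACGGGT over the length of MT-ATP6 and 9.61% over that of MT-ND5. These transcript starts were not matched to the mitochondrial genes in base content. On the opposite strand of the 10 genes, ACGGGT occurred in MT-RNR2 (chrM:1933-1962, plus strand shown) and in MT-CO1 (chrM:7412-7441, plus strand shown). The capitals mark the letters whose reverse complement is ACGGGT.
MT-RNR2: ctaaaagagcacACCCGTctatgtagcaaa
MT-CO1: cacattcgaagaACCCGTatacataaaatc
The first 30 bases of 3 mRNAs, with the start codon in capitals, are from MT-CO1 (chrM:5904-5933), MT-CO2 (chrM:7586-7615) and MT-ND5 (chrM:12337-12366), all on the plus strand of GRCh38.
MT-CO1 start: ATGttcgccgaccgttgactattctctaca
MT-CO2 start: ATGgcacatgcagcgcaagtaggtctacaa
MT-ND5 start: ATAaccatgcacactactataaccacccta
A letter match is a description of sequence and not a binding site.

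Gene counts per library ran from 7772149 to 8076375 in the control and from 38022779 to 48544756 in the mimic libraries. The libraries differed more in what was not counted on a gene. Read pairs that mapped to several places were 73.7% (flow-through) and 76.7% (AGO2-IP) of all pairs in the control, and 2.38% to 19.2% in the mimic libraries. The total in the design sheet for the control AGO2-IP, unlike those of the other libraries, differs from the sum of all its deposited read pairs, on genes or not, and the latter was used. Pairs that named no gene for any reason were 92.3% and 95.03% in the control and 21.4% to 47.2% with mimic. The protocol described names neither poly(A) selection nor rRNA depletion for any library. Of the line's markers, AXL, CAV1, VIM and CD44 had 59.0 to 2729 counts per 1000000 gene counts (CPM), and ESR1, PGR and CDH1 were at most 3.96 CPM. EPCAM had 2.80 to 11.8 CPM and ERBB3 2.72 to 18.1 CPM, both highest in the control AGO2-IP. SPARC was at most 1.73 CPM, although the marker list used here had placed it with the high genes. In bulk RNA, fewer cells with a given content and less RNA per cell cannot be told apart.

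The rRNAs dominated the mitochondrial counts of the control and were scarce with mimic. The 10 genes together took 43.31% of gene counts in the control flow-through (95% Wilson interval 43.27% to 43.34%) and 3.40% in the control AGO2-IP (3.39% to 3.42%). With mimic they took 0.118% and 0.0200% of the 2 flow-through libraries and 0.0110% and 0.0926% of the 2 AGO2-IP libraries. The intervals cover counting error only, as the reads carry no molecular identifiers. The rRNAs alone were 41.6% and 2.72% of the control flow-through and AGO2-IP, and 0.00158% to 0.00311% of the mimic libraries. The 8 mRNAs were 1.73% and 0.685% in the control, and 0.00945% to 0.115% with mimic. The rRNAs made up 96.0% and 79.9% of the counts on the 10 genes in the control, but 2.24% to 14.3% with mimic.

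MT-RNR1, the 12S rRNA of the small mitochondrial ribosomal subunit, had 164364 CPM in the control flow-through and 15163 CPM in the control AGO2-IP. Its levels with mimic were 8.83 and 7.44 CPM in the flow-through and 4.71 and 9.07 CPM in the AGO2-IP. MT-RNR2, the 16S rRNA of the large subunit, had 251421 and 12020 CPM in the control flow-through and AGO2-IP. Its mimic levels were 17.7 and 16.1 CPM in the flow-through and 11.1 and 22.01 CPM in the AGO2-IP. Both rRNAs were at least 546-fold above the higher mimic library of the same fraction, and the mimic libraries of the same fraction differed by at most 1.99-fold. The plot of CPM by gene shows this separation beside the smaller one of the mRNAs.

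**Figure D1:**
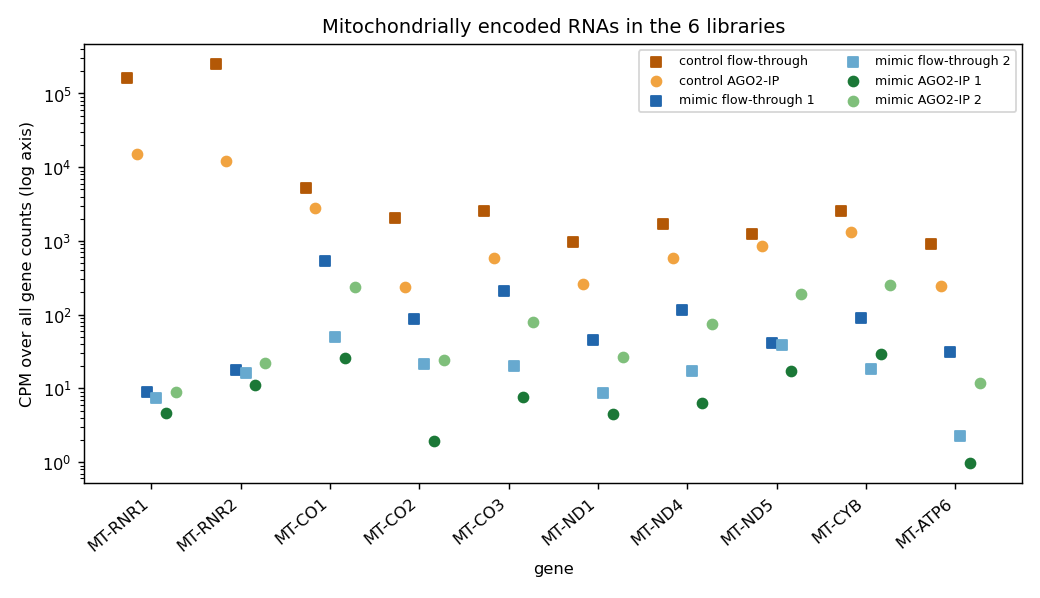
CPM over all gene counts (log axis) of the 10 mitochondrially encoded genes, with 1 point per library: squares are flow-through and circles AGO2-IP, orange shades control, blue shades mimic flow-through and green shades mimic AGO2-IP. The rRNAs reach 164364 and 251421 CPM in the control flow-through and stay between 4.71 and 22.01 CPM in the 4 mimic libraries.

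The mRNAs of complex IV, cytochrome c oxidase, were led by MT-CO1, its catalytic subunit. MT-CO1 had 5282 and 2754 CPM in the control flow-through and AGO2-IP, 535 and 49.7 CPM in the mimic flow-through, and 26.1 and 234 CPM in the mimic AGO2-IP. MT-CO2, the subunit that takes electrons from cytochrome c, had 2061 and 241 CPM in the control flow-through and AGO2-IP, 87.7 and 21.3 CPM in the mimic flow-through, and 1.93 and 24.2 CPM in the mimic AGO2-IP. MT-CO3, the third core subunit, had 2576 and 594 CPM in the control, 207 and 19.9 CPM in the mimic flow-through, and 7.74 and 78.9 CPM in the mimic AGO2-IP. For these genes the first mimic flow-through was above the second, the second mimic AGO2-IP was above the first, and the ranges of the mimic fractions overlapped.

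Complex I, NADH dehydrogenase, was represented by 3 membrane subunits. MT-ND1 had 981 and 259 CPM in the control flow-through and AGO2-IP, 44.9 and 8.67 CPM in the mimic flow-through, and 4.43 and 26.7 CPM in the mimic AGO2-IP. MT-ND4 had 1689 and 581 CPM in the control, 116 and 17.3 CPM in the mimic flow-through, and 6.33 and 75.5 CPM in the mimic AGO2-IP. MT-ND5 had 1243 and 863 CPM in the control, 41.1 and 39.2 CPM in the mimic flow-through, and 17.5 and 193 CPM in the mimic AGO2-IP. MT-ND5 was the one mRNA of the 8 whose mimic flow-through libraries were nearly equal, at a 1.05-fold difference.

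MT-CYB, cytochrome b of complex III, had 2536 and 1315 CPM in the control flow-through and AGO2-IP, 91.4 and 18.1 CPM in the mimic flow-through, and 29.6 and 251 CPM in the mimic AGO2-IP. MT-ATP6, a membrane subunit of ATP synthase, had 904 and 244 CPM in the control, 30.9 and 2.29 CPM in the mimic flow-through, and 0.963 and 11.9 CPM in the mimic AGO2-IP. MT-ATP6 overlaps MT-ATP8 and shares a base with MT-CO3, and pairs that fall on 2 genes are not counted, so its count is a lower estimate. On the scale of CPM per kilobase, MT-CO1 was the highest of the 13 mitochondrial mRNAs in the 3 flow-through libraries and the control AGO2-IP, and MT-CYB in both mimic AGO2-IP libraries. In the control AGO2-IP they stood at 1786 and 1152 CPM per kilobase, and in the mimic AGO2-IP at 16.9 and 25.9 (replicate 1) and 152 and 220 (replicate 2).

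To find which RNAs were recovered with AGO2 in the presence of the mimic, the mimic AGO2-IP libraries were compared with the mimic flow-through. None of the 10 genes passed the test in either direction (edgeR's quasi-likelihood test, log2 fold change of 1 or more in size and Benjamini-Hochberg adjusted p of at most 0.05). Over all 13078 genes tested, 0.245% were called higher and 0.413% lower in the AGO2-IP. By unadjusted p at most 0.05 the count was also 0 of 10 members, against 3107 of 13078 genes. PyDESeq2 called 0 of 10 members, while it called 841 genes higher and 1077 lower of all 13078. The log2 fold change was negative for 8 of the 10 and its median was -0.59, against -0.11 over all genes. MT-CYB had the highest value (1.497 ± 0.941 SE, edgeR adjusted p = 0.345), followed by MT-ND5 (1.36 ± 0.908, adjusted p = 0.373). MT-CO2 had the lowest (-1.94 ± 1.02, adjusted p = 0.265). Both rRNAs were near 0, at -0.27 ± 0.740 for MT-RNR1 and -0.07 ± 0.682 for MT-RNR2 (edgeR adjusted p = 0.851 and 0.961). With the first mimic flow-through left out, MT-CYB alone passed as higher (log2 fold change 2.65, edgeR adjusted p = 0.0495), the lone flow-through library being assumed to vary like the AGO2-IP ones; that fit called 2476 genes higher and 2527 lower of 12270. The median then became 0.88, against 0.14 without the first AGO2-IP, -1.30 without the second flow-through and -2.93 without the second AGO2-IP.

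The lack of a call stood beside replicate pairs that moved in opposite directions. In replicate 1 every one of the 10 genes was lower in the AGO2-IP than in the flow-through, and in replicate 2 every one was higher. This pattern of signs was found in 20.8% of all genes tested. At a log2 CPM ratio of at most -1 in replicate 1 and at least 1 in replicate 2 it held for 7 of the 10 genes, all mRNAs, against 2.41% of all genes. MT-CO1 had log2 CPM ratios of -4.35 and 2.24, MT-ATP6 of -4.94 and 2.36 and MT-CYB of -1.63 and 3.79 (prior count 2). The ratios of the rRNAs were smaller, with -0.90 and 0.29 for MT-RNR1 and -0.67 and 0.45 for MT-RNR2. The median ratio of the 10 genes was -3.76 in replicate 1 and 2.06 in replicate 2, against -0.21 and 0.25 over all genes. Both fractions contributed, since the first flow-through was 4.12-fold to 13.5-fold above the second for the mRNAs other than MT-ND5, and the second AGO2-IP was 6.03-fold to 12.6-fold above the first for all 8. In CPM, the 2 fractions overlapped for all 10 genes, whereas 55.1% of all genes did not overlap.

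**Figure D2:**
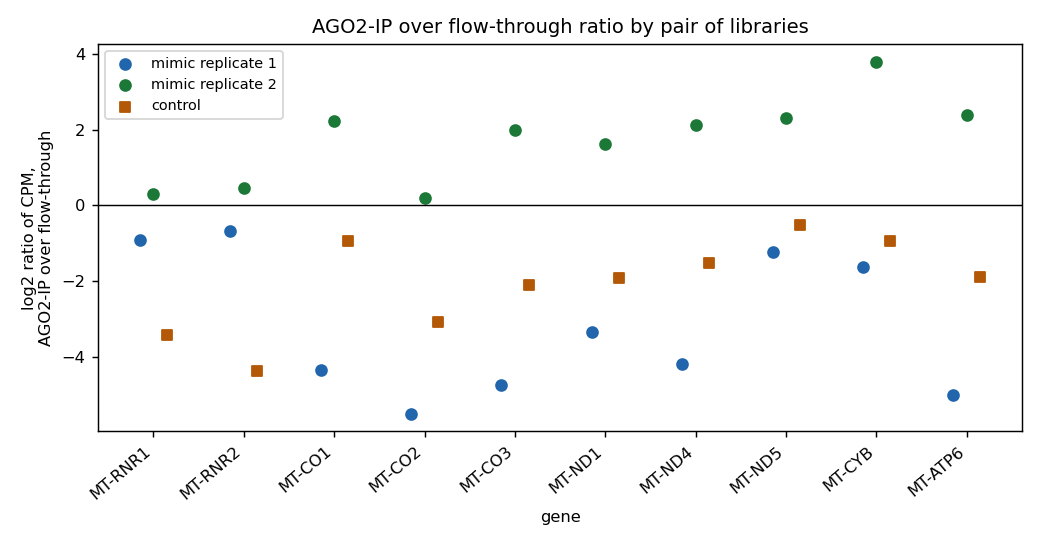
Log2 ratio of CPM, AGO2-IP over flow-through, for each gene in mimic replicate 1 (blue circles), mimic replicate 2 (green circles) and the control (orange squares), 1 library per fraction each. All 10 points of replicate 1 and of the control lie below 0 and all 10 points of replicate 2 lie above it.

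In the control, AGO2-IP and flow-through were set side by side without a test, as each is 1 library. All 10 genes had a log2 ratio of TMM-normalized CPM of at most -1, against 18.1% of the 8245 genes whose 2 counts summed to 200 or more, and the median was -2.80 against 0.01 over those genes. The rRNAs had the lowest ratios, -4.33 for MT-RNR1 and -5.28 for MT-RNR2. Among the mRNAs, MT-CO2 was lowest at -3.99, and MT-ND5 (-1.42), MT-CO1 (-1.83) and MT-CYB (-1.84) were closest to 0. Scaled by library size alone, where the median of all genes rose to 0.91, the members' median was -1.89 and 7 of the 10 were at most -1. A change of scaling moves all genes by about the same amount, so the members' distance from the median of all genes could hardly change.

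The difference between the mimic and the control ratio was tested as the interaction of transfection and fraction over the 6 libraries, with the lone control libraries assumed to vary like the mimic ones. None of the 10 genes passed, nor did any of the 13319 genes (0%), and every member had an edgeR adjusted p of 0.9999. By unadjusted p at most 0.05 it was 2 members and 82 of all genes. These were MT-RNR1 (log2 difference 3.86 ± 1.13 SE, edgeR unadjusted p = 0.00544) and MT-RNR2 (5.01 ± 1.18, unadjusted p = 0.0012), both with the higher ratio in the mimic. The members' median difference was 1.91, and it was 3.44 without mimic flow-through 1, 1.29 without mimic flow-through 2, 2.74 without mimic AGO2-IP 1 and -0.37 without mimic AGO2-IP 2. Without mimic AGO2-IP 2, 5 of the 10 were below 0, and without mimic flow-through 1 the members' edgeR adjusted p ran from 0.0551 to 0.320. The rRNAs stayed above 0 in each of these fits, at 3.40 to 4.27 for MT-RNR1 and 4.52 to 5.43 for MT-RNR2. The median over all genes was -0.13, or -0.83 by library size alone. PyDESeq2 also called 0 of 10, and 0 of all genes at a log2 difference of 1 or more in size.

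Mimic and control were then compared over both fractions, with the lone control libraries again assumed to vary like the mimic ones. The control libraries also differed from all mimic libraries in pairs mapping to several places (73.7% and 76.7% against 2.38% to 19.2%). A difference with transfection and one between these kinds of library can therefore not be told apart, here or in the comparison of ratios above. In edgeR's fit of the 4 groups, 6 of the 10 genes were lower with mimic (MT-RNR1, MT-RNR2, MT-CO2, MT-ND1, MT-CYB and MT-ATP6), against 0.278% of all genes tested, and none was higher, against 0%. The log2 fold change was -12.81 ± 0.727 for MT-RNR1 and -11.78 ± 0.711 for MT-RNR2 (edgeR adjusted p = 5.50e-06 for both). The 4 called mRNAs fell with log2 fold changes of -5.71 ± 0.985 (MT-ATP6, edgeR adjusted p = 0.0391), -4.89 ± 0.841 (MT-CO2, 0.0391), -4.80 ± 0.758 (MT-ND1, 0.0204) and -4.55 ± 0.799 (MT-CYB, 0.0424). The other 4 had values of -4.48 (MT-CO1), -4.43 (MT-ND4), -4.33 (MT-CO3) and -4.08 (MT-ND5) and did not pass, with edgeR adjusted p from 0.0628 to 0.103. By CPM, both control libraries were above all 4 mimic libraries for 10 of 10 genes, against 5.98% of all genes. Each control library was at least 4-fold above every mimic library of its fraction for 10 of 10, against 0.488%. The narrowest gaps were 4.48-fold for MT-ND5 in the AGO2-IP and 9.87-fold for MT-CO1 in the flow-through.

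**Figure D3:**
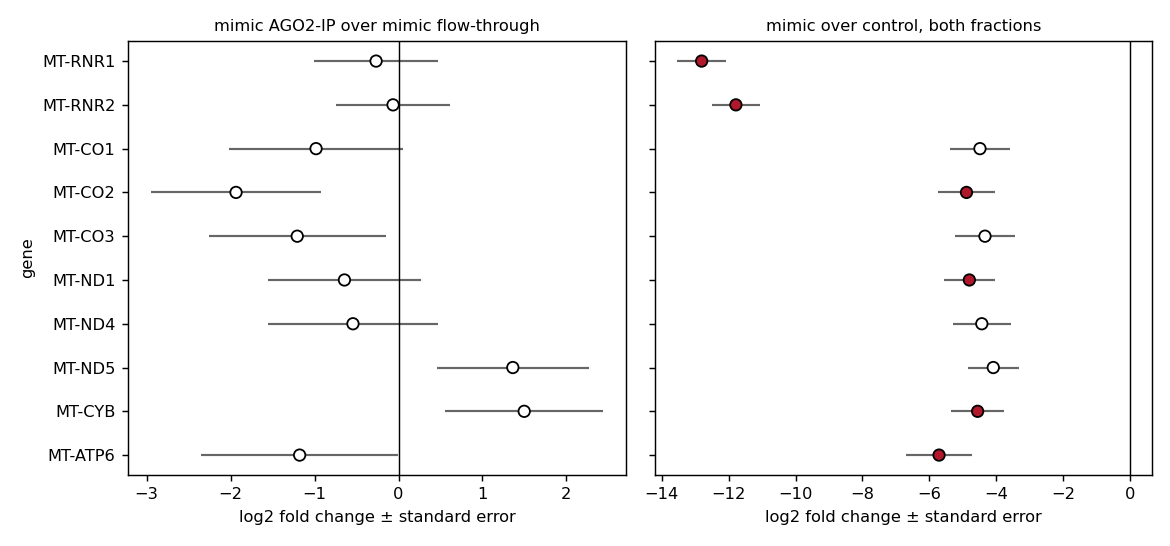
Log2 fold change with its standard error from edgeR for the 10 genes, mimic AGO2-IP over mimic flow-through on the left and mimic over control on the right; filled points passed the thresholds. No point is filled on the left, and on the right 6 are filled, with the rRNAs at -12.81 and -11.78.

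The number of mRNAs called rested on the scaling and on which libraries entered. PyDESeq2 called 10 of 10 (197 genes lower in all, with 1033 left without an adjusted p), and so did edgeR without mimic flow-through 1, without mimic flow-through 2, without mimic AGO2-IP 1 or without mimic AGO2-IP 2, fits that called 303, 497, 40 and 50 genes lower in all. In each of these leave-out fits the spread came only from the mimic fraction that kept both its libraries, so the calls are weakly grounded. The mRNAs were lowest without mimic AGO2-IP 2, where MT-ATP6 was at -7.20, MT-CO2 at -6.39, MT-ND1 at -5.83 and MT-CYB at -5.80. Without mimic AGO2-IP 1 they were at -5.26, -4.44, -4.41 and -4.13 in that order. Without mimic flow-through 1 the same 4 were at -6.94, -5.40, -5.44 and -5.18, and without mimic flow-through 2 at -5.31, -4.63, -4.51 and -4.26. MT-RNR1 stayed within -13.19 to -12.60 and MT-RNR2 within -12.18 to -11.57. DESeq2's size factors, library size alone, strand column 3 and strand column 4 gave 3 of 10, which were MT-RNR1, MT-RNR2 and MT-ND1 in each case. Those fits called 31, 31, 27 and 30 genes lower in all, in that order. With the contrast limited to the AGO2-IP or to the flow-through it was 2 of 10, both rRNAs, with 22 and 15 genes lower in all.

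The rRNA difference stood on the scale of all read pairs as well, and the mRNA difference no longer passed. Scaled to all read pairs, the rRNAs together stood at 32177 and 1350 counts per 1000000 pairs in the control flow-through and AGO2-IP, at 17.2 and 12.4 with mimic in the flow-through, and at 12.3 and 24.4 with mimic in the AGO2-IP. The 8 mRNAs together stood at 1337 and 340 in the control, at 749 and 93.2 in the mimic flow-through, and at 73.8 and 703 in the mimic AGO2-IP. The control flow-through was above both mimic flow-through libraries for 8 of 8 mRNAs, but the control AGO2-IP lay between the mimic AGO2-IP libraries for 7 of 8. MT-ATP6 was the exception, with 12.1 counts per 1000000 pairs in the control AGO2-IP and 0.752 and 9.32 in the mimic ones. The control AGO2-IP values rest on the sum of its deposited read pairs, which differs from the total in the design sheet. With that other total, these values and their place among the mimic libraries would change. In edgeR scaled by all read pairs, MT-RNR1 (-9.24) and MT-RNR2 (-8.23) passed (adjusted p = 0.00249 for both), with 27 genes called lower in all. The mRNAs ranged from -1.99 to -0.54 and did not pass, while the median of all genes moved to 3.77 from 0.19 and 12909 of 13319 genes were called higher with mimic. This scaling moves all genes by about the same amount. The distance of the mRNAs from the median of all genes could therefore hardly change, and it is no separate evidence. The share of pairs mapping to several places, which moved with the transfection, was given above, and its part in the result was not tested.

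Some shares within the mitochondrial mRNAs separated the fractions in these libraries and others did not. Shares of this kind do not depend on any library scaling. As a share of the counts on the 13 mitochondrial mRNAs, MT-CYB was 13.8%, 7.61% and 9.35% in the control and the 2 mimic flow-through libraries, and 17.5%, 30.6% and 27.3% in the corresponding AGO2-IP libraries. MT-CO2 was 11.2%, 7.29% and 11.02% in the flow-through and 3.20%, 1.99% and 2.64% in the AGO2-IP. MT-CO3 was 14.0%, 17.2% and 10.3% in the flow-through and 7.89%, 8.01% and 8.59% in the AGO2-IP. MT-ND4 was 8.94% to 9.64% in the flow-through and 6.55% to 8.21% in the AGO2-IP. The fractions did not overlap for these 4 of the 8 mRNAs, or for 5 of all 13 (38.5%), the fifth being MT-ND4L. No test was made of these shares, which sum to 100% in each library and so are not independent of one another. The shares of MT-CO1 (25.5% to 44.5% over the 6 libraries), MT-ND1, MT-ND5 and MT-ATP6 overlapped between fractions.

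The ratio of MT-CYB to MT-CO2 counts combined 2 of these shares. It was 1.23 in the control flow-through and 1.04 and 0.848 in the mimic flow-through, and 5.46 in the control AGO2-IP and 15.4 and 10.4 in the mimic AGO2-IP. The ratio of MT-ND5 to MT-CO2 was 0.603, 0.469 and 1.84 in the flow-through libraries and 3.58, 9.07 and 7.96 in the AGO2-IP libraries, in the same order. Both ratios were higher in each of the 3 AGO2-IP libraries than in any flow-through library. They were lower in the control AGO2-IP than in either mimic AGO2-IP. The shares of MT-CYB and MT-CO2 had already separated the fractions in opposite directions. The separation of their ratio follows from those shares and is no further evidence. MT-CO2 is also the denominator of the second ratio, while the shares of MT-ND5 overlapped.

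**Figure D4:**
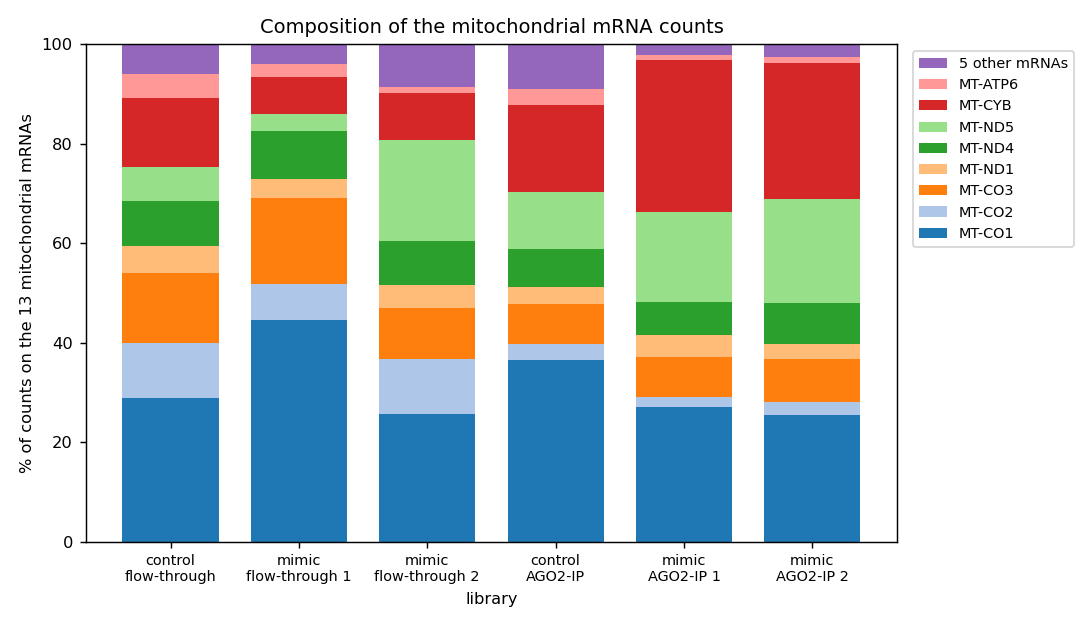
Share of the counts on the 13 mitochondrial mRNAs (%, stacked to 100) taken by each of the 8 mRNAs and by the 5 others together, in the 3 flow-through libraries (left) and the 3 AGO2-IP libraries (right). The MT-CYB segment is 7.61% to 13.8% in flow-through and 17.5% to 30.6% in AGO2-IP, and the MT-CO2 segment 7.29% to 11.2% and 1.99% to 3.20%.

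The reads did not keep the strand of origin clearly. The share of stranded counts in the first strand column was 35.3% to 51.1% for the 8 mRNAs and 46.0% to 52.2% for the rRNAs, all transcribed from one strand, and 55.6% to 69.4% for MT-ND6, which is encoded on the other. Reads from a gene and from RNA of the opposite strand can therefore not be told apart.

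Copies of mitochondrial DNA in the nuclear genome limit how well some of these genes can be counted. Of all 150-base stretches of MT-CO1, 14.5% occur unchanged in the nuclear genome, as do 10.4% of those of MT-RNR1 and 1.12% of those of MT-ND1, and none of those of the other 7 genes. The copy nearest to MT-CO1, MT-CO2, MT-CO3 and MT-ATP6 lies at chr1:629081-634924 in GRCh38, with 98.0% to 98.7% identity. MT-CYB, MT-ND4 and MT-ND5 have their nearest copy at chr5:134923309-134928527, with 92.4% to 95.7% identity. These copies cover 70.0% of MT-CO3, 64.9% of MT-CYB and 100% of the others named. The chr1 copy is also nearest to MT-ND1, with 99.1% identity over 36.8% of the gene. MT-RNR1 has its nearest copy at chr5:80650022-80652368 (95.7% identity over 100%). That of MT-RNR2 is at chr11:10507887-10510336 (93.2% over 83.5%). Of 404 annotated nuclear copies, 127 had a count and 2 entered the tests, MTCO1P12 and MTATP6P1. MTCO1P12 had 1631 and 797 counts in the control flow-through and AGO2-IP, 424 and 99 with mimic in the flow-through, and 6 and 76 with mimic in the AGO2-IP. Both were lower with mimic than with control (log2 fold changes of -6.06 and -7.01, edgeR adjusted p = 0.0107 and 0.00908), and 0 of 2 passed between the mimic fractions. Reads of a mitochondrial gene and of such a copy can be assigned to one another, so the values of these pseudogenes are uncertain.

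The remaining mitochondrial genes were set beside the 10. Of the 5 other mRNAs, 4 entered the test between the mimic fractions and 0 passed. Against the control 2 of 5 were lower with mimic, MT-ND2 (log2 fold change -5.90, edgeR adjusted p = 0.00665) and MT-ND6 (-5.97, adjusted p = 0.0092). Of the 22 mitochondrial tRNA genes, 11 had no count in any library, and MT-TP had the most, with 133 to 963 counts per library. The 3 that entered the comparison with control did not pass.

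The last list was of nuclear-encoded factors of mitochondrial gene expression. Of 35 listed, 34 were tested, 0 passed in either comparison of edgeR, and 12 between the mimic fractions and 2 between mimic and control had an unadjusted p of at most 0.05, where 3107 of 13078 and 1177 of 13319 of all genes did. Their median log2 fold change was 0.52 between the mimic fractions and 0.65 between mimic and control, where all genes had -0.11 and 0.19. The factors with the largest counts were GRSF1, an RNA-binding protein of mitochondrial RNA granules, LRPPRC, which stabilises mitochondrial mRNAs, and TFAM, which packages mitochondrial DNA and starts its transcription. Between the mimic fractions they had log2 fold changes of 1.91, 1.69 and 2.86 (edgeR adjusted p = 0.107, 0.136 and 0.063). In the control 6 of 21 were at a log2 ratio of 1 or more and 4 at -1 or less, where 15.9% and 18.1% of all genes were.

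The genes off the mitochondrial chromosome whose levels ran most like the sum of the 10 were found by Pearson's r of log2 CPM over the 6 libraries, among 13301 genes. They were MTATP6P1 (r = 0.9898), LINC01088 (0.979), ENSG00000280614, a long non-coding RNA (0.976), ENSG00000225840, a processed pseudogene (0.968), and CMKLR2 (0.963). In all 45 genes reached 0.9. The 6 points share their libraries, depth and the split between control and mimic, so the values are a description.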

How the data were processed

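The authors checked reads with FastQC 0.11.9, trimmed them with Cutadapt 3.5 and aligned the pairs to GRCh38 with STAR 2.7.11b in 2 passes, counting with its quant mode. The Ensembl release is not given in the sources used here. The deposited values are read counts per gene, whole and not normalized; pairs that map to several places or to 2 genes are left out. Column 2 (unstranded) was used, since the stranded counts were split about evenly (49.0% to 55.1% in the first). Lines that name no gene (21.4% to 95.03% of pairs) stayed out of library sizes and tests. Of 60708 identifiers, 60463 were named through GENCODE 44 and 245 were not.

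Genes whose counts summed to 200 or more were tested with edgeR 4.0.16 (R 4.3.3; glmQLFit, glmQLFTest, TMM) and called at a log2 fold change of 1 and an adjusted p of 0.05. The standard error is the log2 fold change divided by the square root of F. Control ratios rest on 1 library each and have no p. The script was tested on simulated data with less spread between libraries than these data had. The outcome of that test is not given and lends no weight to the calls. Alternatives were DESeq2 1.42.0 size factors, PyDESeq2 0.5.4, library size alone, other filters and prior counts, each strand column, a replicate block and each replicate left out. Scaling by all read pairs and the contrast within each fraction were chosen after seeing the data.

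The labels number the mimic libraries by biological replicate, each with both fractions, and the numbers were taken to pair them. Deviations of same-numbered libraries correlated across 13078 genes at r = 0.326. They had the same sign for 0 of the 10 members, against 7516 of the 13078 genes. The paper calls the replicates independent and biological without describing cultures, and p-values measure the spread between these libraries.

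The rule for named genes was all 10 members, the 5 other mitochondrial mRNAs, the tRNAs by counts (MT-TP was named after its counts were seen), at most 3 genes of each other list by summed count, the 5 most similar genes and a list of cell line markers. Members and lists were chosen with earlier results of these data known.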

Additional observations from a re-analysis of the deposited data

How the results depend on the processing

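Without the first mimic flow-through, 1 member was called higher in the mimic AGO2-IP, against 0 without each of the other 3 libraries (range 0 to 1). The members lower with mimic than control were 6, but 3 with DESeq2 size factors, library size alone, strand column 3 or strand column 4. They were 2 when scaled by all read pairs or within either fraction alone, 10 with PyDESeq2 and 10 to 10 over the fits without each mimic library. The median control ratio was -1.89 by library size, -2.69 by library size of nuclear genes, -2.72 and -2.96 by strand columns 3 and 4, and -2.54 by all read pairs. Over all read pairs the members' share was 3.35% and 0.169% in the control flow-through and AGO2-IP, 0.0766% and 0.0106% with mimic in the flow-through, and 0.00862% and 0.0728% in the mimic AGO2-IP. Over protein-coding and mitochondrial rRNA genes it was 46.1%, 3.47%, 0.136% and 0.0275% in those first 4 and 0.0112% and 0.0941% in the mimic AGO2-IP. Between the mimic fractions the rRNAs changed sign with no count filter (MT-RNR1 0.14, MT-RNR2 0.35) and when scaled by all read pairs (0.16 and 0.38). The causes of these shifts were not tested.

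Leaving out 1 library changed the sign between the mimic fractions for 9 of the 10 members. MT-CO2 kept its sign but ranged from -4.78 (without the second AGO2-IP) to -1.01 (without the first flow-through). The fits ranged from -0.90 to 0.14 for MT-RNR1, -0.73 to 0.36 for MT-RNR2, -3.38 to 1.08 for MT-CO1, -3.77 to 0.82 for MT-CO3, -2.54 to 0.53 for MT-ND1, -3.31 to 0.94 for MT-ND4, -1.33 to 2.23 for MT-ND5, -0.83 to 2.65 for MT-CYB and -3.99 to 1.18 for MT-ATP6. The values behind the sign changes were, without the first flow-through, 1.08, 0.82, 0.53, 0.94 and 1.18 for MT-CO1, MT-CO3, MT-ND1, MT-ND4 and MT-ATP6, and, without the second, 0.10 for MT-RNR2. Without the first AGO2-IP they were 0.14, 0.36, 0.13 and 0.33 for MT-RNR1, MT-RNR2, MT-ND1 and MT-ND4, and, without the second, -1.33 and -0.83 for MT-ND5 and MT-CYB.

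With the replicate block, 0 of 10 members were called in either direction and their median log2 fold change was -0.98. The block changed no member's call, while the calls over all genes rose from 32 higher and 54 lower to 601 and 664. Depth limits the low counts most: MT-ATP6 had 45 and MT-CO2 90 counts in the first mimic AGO2-IP, and the control rests on 1 library a fraction.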
